A study of Mus musculus with 36 samples.

Results

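The circadian clock genes described here are Arntl, Npas2, Per1, Per2, Per3, Nr1d1, Nr1d2, Dbp, Tef and Ciart, 10 of the 55291 gene symbols in the RNA-seq tables. They were taken by symbol, whatever their values, in all 36 libraries. All 10 passed the filter on low counts that left 19231 genes for testing.

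The cardiac clock is a transcriptional feedback loop. ARNTL (BMAL1) pairs with CLOCK or its paralog NPAS2 and activates genes through E-box elements, among them the Per genes, Nr1d1, Nr1d2, Dbp, Tef and Ciart. PER proteins repress that pair, NR1D1 and NR1D2 (REV-ERBα and REV-ERBβ) repress Arntl and Npas2 through ROR elements, and DBP and TEF activate through D-boxes, so that Arntl and Npas2 peak at the opposite time of day from Dbp and Nr1d1. In the heart this loop is known to set daily rhythms of ion channels and of fuel use.

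The mice were CUG960 animals, a heart model of myotonic dystrophy type 1 with the genotype TREDT960I (Hom)/ MHCrtTA (Hem), which all 6 cohorts shared. Doxycycline (dox) switches on the expanded CUG repeat RNA through an rtTA activator driven by the cardiomyocyte Myh6 promoter. The +dox cohort was fed dox from postnatal day 1 to 21 weeks of age, and the -dox cohort never received it. The +/-dox cohort returned to normal chow at 9 weeks. Dox was kept on in the 3 vector cohorts, named MBNL1, MBNL2 and MBNL1+MBNL2, which were injected in the tail vein at 9 weeks with AAV9-3XFLAG-MBNL1, AAV9-3XMYC-MBNL2 or both, human proteins expressed from the cardiac TNNT2 promoter. Left ventricle and atria were collected at 21 weeks, with 3 libraries per cohort and chamber in 12 groups. No cohort with an empty or control vector was analysed here, so the effect of the vector and that of the protein cannot be told apart. All mice were kept on a light/dark cycle, and the time of day at which each heart was taken is not given in the sources used here, so a cohort's treatment and its collection time cannot be told apart. In whole chambers, fewer cells of a type and less RNA per cell cannot be told apart either.

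The libraries held 55031987 to 97091184 counts. The ventricular light chain Myl2 was at 14193 to 20122 TPM (transcript abundance scaled to gene length and library total) in ventricle and 28.7 to 581 TPM in atria, and the atrial peptide gene Nppa at 70.3 to 550 TPM in ventricle and 17827 to 40237 TPM in atria, so that the chambers matched their labels. Library names fell into 2 sets. Set A held replicates 1 and 2 of every cohort but MBNL1+MBNL2, all 20 with male sex-linked transcripts. Set B held the other 16, of which 10, replicate 3 of the same cohorts, had the female transcript Xist, so that set and sex cannot be told apart. Between sets within a chamber no member was called, where called means an adjusted p under 0.05 and a fold of at least 1.5 in edgeR's quasi-likelihood test: 0 of 10 in ventricle, beside 0.251% of all genes tested, and 0 of 10 in atria, beside 2.37%. None of the 10 had an unadjusted p under 0.05 in either chamber. Ventricular MBNL1 replicate 1 stood apart in detection, with 16885 genes above 0 against 20578 to 24041 in the other libraries. MBNL1+MBNL2 replicate 2 stood apart for the clock genes in both chambers. Values that rest on either are given with and without it. Each animal gave both chambers, per the study's sample list, while the labels give only replicate numbers, so chambers are compared below over same-numbered libraries.

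The promoters of the members are shown because the loop acts through them. RefSeq windows on GRCm38.p6, from 250 bases before to 50 after a start site, were found for 9 of 10 members (12 windows). Searched on both strands for the E-box CACGTG, the D-box TTANGTAA and the ROR elements ANTAGGTCA and ANTGGGTCA, windows of 5 members held a match. Among all 32851 windows, 7.15% held the E-box, 2.32% the D-box and 1.45% a ROR element. Motifs are in capitals, and all sequences read 5′ to 3′ on the gene's strand. The motifs did not overlap one another.

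The Ciart promoter (chr3:95882252-95882478, minus strand) held 3 E-boxes, starting 116, 58 and 44 bases before the start site.
Ciart: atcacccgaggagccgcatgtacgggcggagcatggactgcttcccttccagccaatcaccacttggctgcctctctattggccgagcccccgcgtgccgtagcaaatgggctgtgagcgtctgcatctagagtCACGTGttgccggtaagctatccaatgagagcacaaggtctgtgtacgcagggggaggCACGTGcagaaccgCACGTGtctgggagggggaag

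The Per3 promoter (chr4:151044666-151044915, minus strand) held 2 D-boxes, starting 205 and 158 bases before the start site and inside an intron of the longer gene Camta1 on the same strand.
Per3: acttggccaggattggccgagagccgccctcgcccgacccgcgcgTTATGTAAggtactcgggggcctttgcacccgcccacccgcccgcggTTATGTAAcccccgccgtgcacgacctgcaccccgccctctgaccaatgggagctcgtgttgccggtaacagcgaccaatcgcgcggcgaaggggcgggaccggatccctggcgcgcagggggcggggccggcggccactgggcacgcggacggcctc

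Per1 had 1 E-box, 166 bases before the start site of 1 of its 2 windows, in sequence that is intronic for the longest Per1 transcript (chr11:69098736-69098835, plus strand). Tef had 1 in each of its 2 windows, the first in an exon of an upstream transcript (chr15:81802534-81802563, plus strand) and the second intronic (chr15:81811229-81811328, plus strand).
Per1: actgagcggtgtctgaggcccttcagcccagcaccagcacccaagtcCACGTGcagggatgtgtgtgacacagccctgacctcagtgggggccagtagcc
Tef, first window: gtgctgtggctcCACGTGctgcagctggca
Tef, second window: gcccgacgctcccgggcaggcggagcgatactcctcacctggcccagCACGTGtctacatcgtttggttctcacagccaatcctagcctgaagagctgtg

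The only ROR element among the members lay in Arntl, starting at base 29 after the start site, in the first exon (chr7:113207529-113207558, plus strand).
Arntl: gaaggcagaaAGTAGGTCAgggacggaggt

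On the TPM scale, which is per length and compares genes, the output factors stood highest and the activators lowest. In the ventricle the medians over 18 libraries ran from Dbp (67.2 TPM) through Tef (57.8), Nr1d2 (46.8), Nr1d1 (28.1), Per1 (15.2), Per3 (7.63), Per2 (6.70), Ciart (3.88) and Arntl (1.06) to Npas2 (0.625). In the atria the order was the same from Dbp (117 TPM) through Tef (96.8), Nr1d2 (73.3), Nr1d1 (46.3), Per1 (28.5), Per3 (12.6), Per2 (11.6) and Ciart (7.46), and ended with Npas2 (2.33) above Arntl (1.44). Only Per1 and Per3 had ranges that did not overlap with their neighbour's in this order, in both chambers. Per3 was above Per2 in 12 of 18 ventricles and 11 of 18 atria, so that their order was not stable between libraries.

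**Figure D1:**
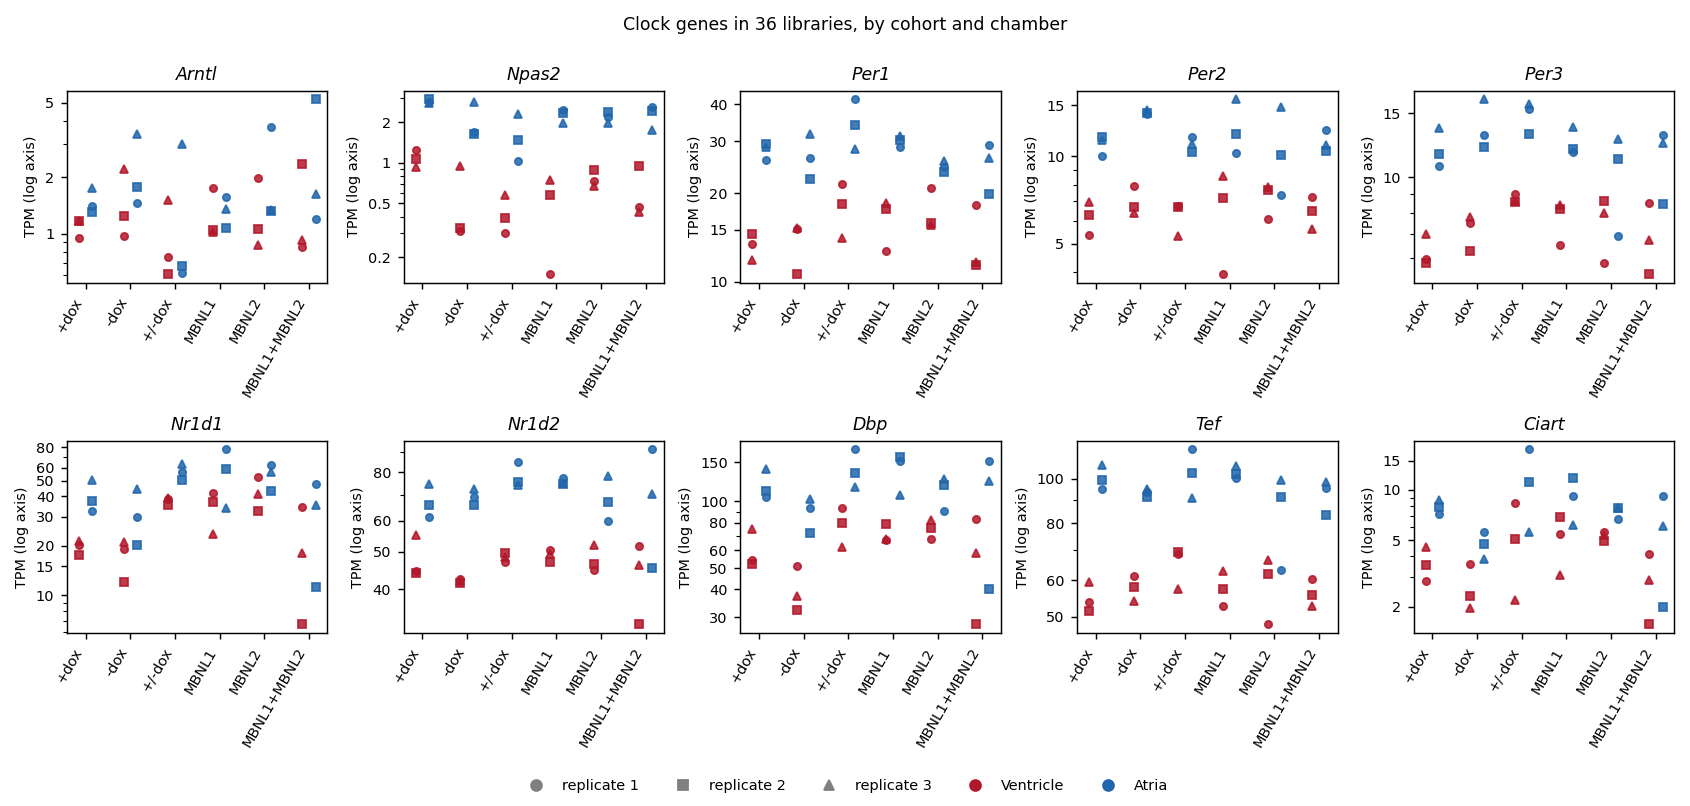
TPM (log axis, a different range in each panel) of the 10 clock genes in 36 libraries, by cohort, with the chambers in colour and the replicate number as the marker. Npas2 reached 1.25 TPM at most in the ventricles and was at 1.03 TPM or above in the atria, and MBNL1+MBNL2 replicate 2 was at the extreme of its cohort for Arntl, Nr1d1 and Dbp in both chambers.

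Npas2, the activator paralog of Clock, was the one member that was called between cohorts, and its mean was highest in the +dox cohort in both chambers. Against the +dox cohort it was called lower in the ventricles of the -dox, +/-dox and MBNL1 cohorts and in no atrial comparison. In the ventricles of the +dox cohort Npas2 was at 1.25, 1.07 and 0.93 TPM (399, 362 and 203 counts). In those of the -dox cohort it was at 0.31, 0.33 and 0.94 TPM (70, 85 and 170 counts). In those of the +/-dox cohort it was at 0.30, 0.39 and 0.58 TPM (74, 77 and 122 counts). All 3 +/-dox libraries lay below all 3 +dox libraries, whereas the third -dox library reached the lowest +dox library.

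In the ventricles of the MBNL1 cohort Npas2 was at 0.15, 0.58 and 0.75 TPM, the first, the library with the fewest genes detected, being the lowest of all 36. In the MBNL2 cohort it was at 0.73, 0.88 and 0.67 TPM, and in the MBNL1+MBNL2 cohort at 0.47, 0.95 and 0.43 TPM. CPM (counts scaled to the library total) after TMM scaling, the scale of the tests, put all libraries of the +/-dox, MBNL1, MBNL2 and MBNL1+MBNL2 cohorts below those of the +dox cohort. Of all genes tested, 38% did not overlap with +dox in the +/-dox ventricle, 23.2% in MBNL1, 27.8% in MBNL2 and 22.5% in MBNL1+MBNL2, counted in either direction, so that a lack of overlap was common.

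The log2 fold change of Npas2 in the ventricle was -1.06 ± 0.38 (SE, n = 3 and 3; edgeR adjusted p = 0.0477) for -dox against +dox and -1.37 ± 0.39 (edgeR adjusted p = 0.0114) for +/-dox against +dox. It was -1.21 ± 0.38 (edgeR adjusted p = 0.0445) for MBNL1, -0.92 ± 0.38 (edgeR adjusted p = 0.142) for MBNL1+MBNL2 and -0.66 ± 0.37 (edgeR adjusted p = 0.308) for MBNL2. One of 10 members was thus called in the -dox ventricle beside 7.6% of all genes tested, 1 in the +/-dox ventricle beside 6.6%, and 1 in the MBNL1 ventricle beside 2.66%. With 1 called member, these counts are near the background. No member was called in the MBNL2 ventricle, beside 1.52%, or in the MBNL1+MBNL2 ventricle, beside 2.65%. At an unadjusted p under 0.05 there were 5 members in the +/-dox ventricle (Npas2, Per3, Per1, Tef and Nr1d1) and 1 in each of the other cohorts, Nr1d1 in MBNL2 and Npas2 in -dox, MBNL1 and MBNL1+MBNL2. The share of all genes tested under that unadjusted p is not given here, so these counts have no background beside them.

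The +/-dox call was lost when replicate 1 of that cohort was left out (log2 fold change -1.19, edgeR adjusted p = 0.068), and the -dox and MBNL1 calls were lost when any of several libraries was left out: the adjusted p reached 0.211 without -dox replicate 1 and 0.182 without MBNL1 replicate 1, where the log2 fold change was -0.80. The endothelial markers went the other way from Npas2, with their lowest values in the +dox ventricles. Their sum over 3 genes was 119 to 130 TPM in the +dox ventricles, 148 to 191 in -dox and 155 to 173 in +/-dox. It was 134 to 155 TPM in MBNL1, 151 to 169 in MBNL2 and 129 to 160 in MBNL1+MBNL2, the last with a slight overlap with +dox. The red blood cell markers, also 3 genes, were at 366 to 1147 TPM in the +dox ventricles, at 1774 to 3908 in -dox and at 2254 to 2782 in +/-dox. They overlapped with +dox in MBNL1 (591 to 1284 TPM), MBNL2 (351 to 1826) and MBNL1+MBNL2 (90.4 to 1269). The part of the endothelial and red blood cell markers in the Npas2 difference was not tested.

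In the atria of the +dox cohort Npas2 was at 2.84, 2.95 and 2.79 TPM. In those of the -dox cohort it was at 1.70, 1.64 and 2.84 TPM, and in those of the +/-dox cohort at 1.03, 1.47 and 2.30 TPM. The atria of the MBNL1, MBNL2 and MBNL1+MBNL2 cohorts were at 1.98 to 2.46, 1.98 to 2.36 and 1.75 to 2.58 TPM. Every atrial library of the +/-dox, MBNL1, MBNL2 and MBNL1+MBNL2 cohorts was below the +dox libraries, as in the ventricle, in comparisons where 34.1%, 17.4%, 11.4% and 17.6% of all genes tested did not overlap.

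The atrial log2 fold change of Npas2 was -0.79 ± 0.37 for +/-dox against +dox (edgeR adjusted p = 0.174) and ranged from -0.46 to -0.35 in the other 4 cohorts. No member was called in the atria of the -dox cohort (beside 5.23% of all genes tested), the +/-dox cohort (3.99%), the MBNL1 cohort (0.13%), the MBNL2 cohort (0.0052%) or the MBNL1+MBNL2 cohort (0.26%). At an unadjusted p under 0.05 there were 2 members, Npas2 and Per3, in the +/-dox atria and 0 in the other 4 cohorts, again without the share of all genes beside them. With the atria fitted alone, or by limma on log2(TPM + 1), Npas2 was called in the +/-dox atria (adjusted p = 0.0249 and 0.018).

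The response of the members to each cohort was not shown to differ between chambers. The interaction, atria minus ventricle, called 0 of 10 members for -dox against +dox, beside 0.764% of all genes tested, for +/-dox (0.489%), MBNL1 (0.0312%), MBNL2 (0.0364%) and MBNL1+MBNL2 (0.0728%). None of the members had an unadjusted p under 0.05 there. With same-numbered libraries as a block, none was called either, and the lowest adjusted p was 0.0809 (edgeR, Nr1d1 in MBNL2, interaction -0.46 ± 0.13). For Npas2 the interaction was 0.60 ± 0.53 for -dox (edgeR adjusted p = 0.761), so that its ventricular calls are not shown to be particular to that chamber.

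**Figure D2:**
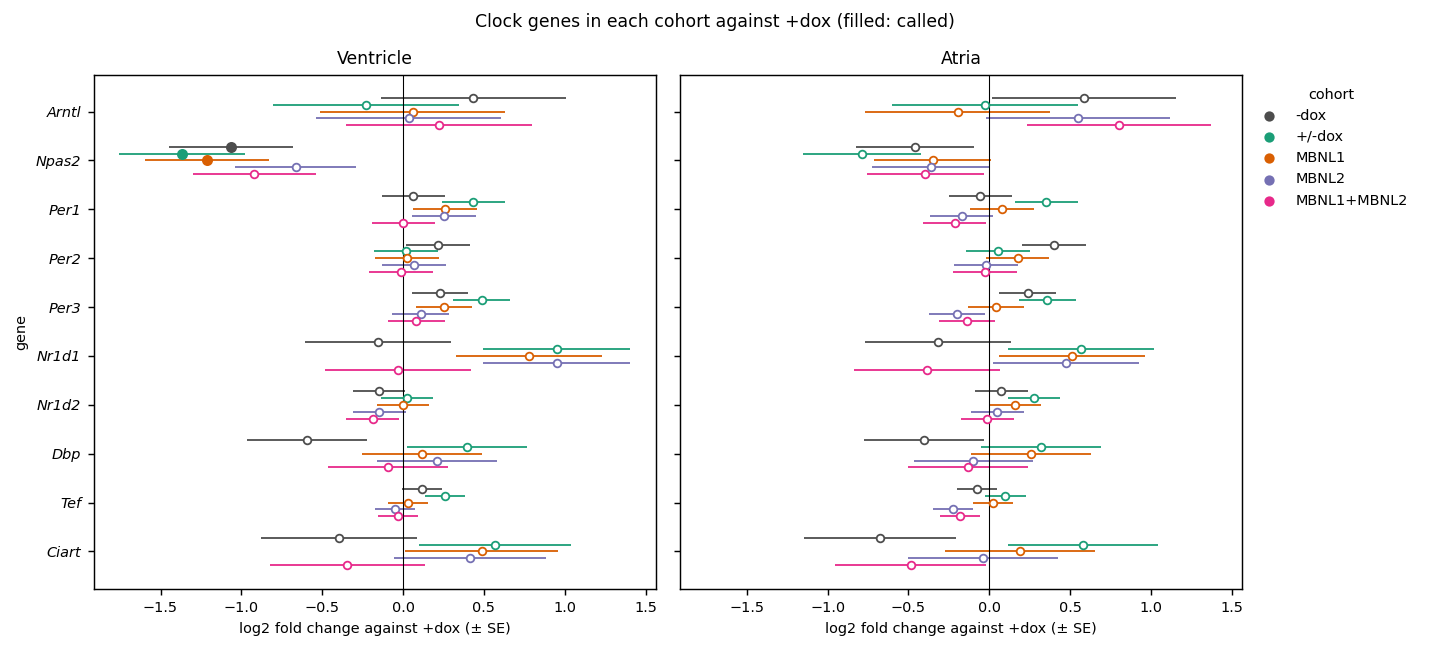
Log2 fold change (± SE) of each clock gene in 5 cohorts against +dox, in ventricle (left) and atria (right), with filled points for the genes called. The only filled points are Npas2 in the -dox, +/-dox and MBNL1 ventricles, at -1.06, -1.37 and -1.21.

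Among the repressors and the output genes, cohorts took between 10.6% (Per2 in the ventricle) and 56.9% (Per1 in the atria) of the variance between libraries on the log2 CPM scale, with 54.9% for Nr1d1 in the ventricle. With 6 cohort means over 18 libraries, a sizeable part of such a share arises without any cohort effect. No share for all genes is given here, so these values have no background beside them. Nr1d1, which encodes REV-ERBα, was at 20.3, 17.5 and 21.5 TPM in the +dox ventricles and 38.8, 35.4 and 39.4 TPM in the +/-dox ventricles, without overlap. It was at 19.1, 12.0 and 21.0 TPM in -dox, 41.7, 37.1 and 23.7 TPM in MBNL1, and 52.4, 32.6 and 41.4 TPM in MBNL2. In MBNL1+MBNL2 it was at 34.5, 6.66 and 18.1 TPM, so that 1 cohort held one of the higher and the lowest ventricular library.

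The log2 fold change of Nr1d1 against +dox in the ventricle was 0.95 ± 0.45 for +/-dox (edgeR adjusted p = 0.145), 0.78 ± 0.45 for MBNL1 (adjusted p = 0.298) and 0.95 ± 0.45 for MBNL2 (adjusted p = 0.219). In -dox it was -0.16 ± 0.45 and in MBNL1+MBNL2 -0.03 ± 0.45, which became 0.39 (adjusted p = 0.696) without MBNL1+MBNL2 replicate 2. In the +dox atria Nr1d1 was at 32.8, 37.5 and 50.2 TPM, and in the +/-dox atria at 56.1, 50.7 and 63.4 TPM, with a log2 fold change of 0.56 ± 0.45 (edgeR adjusted p = 0.479). None of these passed the test. The +/-dox libraries lay above the +dox libraries in both chambers, where 38% and 34.1% of all genes tested did not overlap in either direction. Nr1d2, its paralog, ranged from 32.6 to 55.1 TPM in the ventricles and 45.3 to 91.5 TPM in the atria, with ventricular log2 fold changes of -0.19 to 0.02.

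Among the Per genes, Per3 in the +/-dox ventricle had an adjusted p under the threshold at a smaller fold than the rule asks for. It was at 8.98, 8.57 and 8.63 TPM there and at 5.98, 5.82 and 7.0 TPM in +dox, a log2 fold change of 0.49 ± 0.18 (edgeR adjusted p = 0.0471). Per1, which light and glucocorticoids also induce, was at 21.4, 18.4 and 14.1 TPM in the +/-dox ventricles and at 13.5, 14.6 and 11.8 TPM in the +dox ventricles. Its log2 fold change was 0.43 ± 0.20 (edgeR adjusted p = 0.119), and without +/-dox replicate 3 it was 0.61 (adjusted p = 0.041), which was a call. Per2 ranged from 3.93 TPM (MBNL1 replicate 1, the library with the fewest genes detected) to 8.55 TPM (MBNL1 replicate 3) in the ventricles, with 5.30 TPM the lowest of the other libraries. Its log2 fold changes against +dox lay between -0.01 and 0.21 there.

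Dbp, a D-box activator under direct control of ARNTL, was at 54.4, 52.2 and 75.0 TPM in the +dox ventricles and at 50.8, 32.3 and 37.2 TPM in the -dox ventricles. The -dox libraries all lay lower (33.6% of all genes tested did not overlap there), and the log2 fold change was -0.59 ± 0.37 (edgeR adjusted p = 0.288). In the atria Dbp was at 105, 111 and 140 TPM in +dox and 93.8, 72.0 and 102 TPM in -dox, also without overlap (36.6% of all genes), with a log2 fold change of -0.40 ± 0.37 (edgeR adjusted p = 0.521). Ciart, a repressor of the ARNTL complex also called CHRONO, was at 2.83, 3.53 and 4.57 TPM in the +dox ventricles and at 8.36, 5.08 and 2.19 TPM in +/-dox, which overlapped. Tef ranged from 48.1 to 69.0 TPM in the ventricles and 63.3 to 116 TPM in the atria.

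Arntl, the core activator, was at 0.95, 1.17 and 1.17 TPM in the +dox ventricles and at 1.41, 1.31 and 1.75 TPM in the +dox atria. Its -dox ventricles were at 0.97, 1.24 and 2.22 TPM, and its -dox atria at 1.46, 1.78 and 3.39 TPM. The +/-dox cohort held both low and high libraries, with 0.75, 0.61 and 1.52 TPM in the ventricles and 0.62, 0.67 and 3.02 TPM in the atria. No log2 fold change of Arntl against +dox exceeded 0.80 ± 0.57 (MBNL1+MBNL2 atria, edgeR adjusted p = 0.718), and each cohort overlapped with +dox. That value rested on 1 library: without MBNL1+MBNL2 replicate 2 it was -0.13 (edgeR adjusted p = 0.991).

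The 2 cohorts without the CUG repeat RNA at collection were also compared with each other. For -dox against +/-dox no member was called in the ventricle, beside 0.0312% of all genes tested, or in the atria, beside 0.0104%. At an unadjusted p under 0.05 there were 2 members in each chamber: Dbp (log2 fold change -0.99 ± 0.38, adjusted p = 0.473) and Nr1d1 (-1.10 ± 0.46, adjusted p = 0.521) in the ventricle, and Ciart (-1.26 ± 0.47, adjusted p = 0.855) and Per1 (-0.41 ± 0.20, adjusted p = 1) in the atria, all by edgeR. The values came from 3 libraries each, whose collection times are not given, and the counts at an unadjusted p have no share of all genes beside them.

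The spread between libraries of 1 group was wide for some members and narrow for others. The SD within groups on the log2 CPM scale was 0.57 for Arntl, 0.64 for Npas2, 0.60 for Nr1d1, 0.62 for Ciart and 0.44 for Dbp in the ventricle, against 0.22 for the median gene tested. It was 0.80 for Arntl, 0.61 for Ciart, 0.58 for Nr1d1, 0.52 for Dbp and 0.33 for Npas2 in the atria, where the median gene had 0.18. Arntl's SD in the atria was higher than that of 94.2% of the genes tested. Tef had 0.16 in ventricle and 0.17 in atria, and Nr1d2 had 0.20 and 0.23.

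The widest deviations came from the same replicate numbers in both chambers. MBNL1+MBNL2 replicate 2 had the highest Arntl of all ventricles (2.36 TPM) and of all atria (5.21 TPM). It had the lowest Nr1d1 in both (6.66 and 11.2 TPM), the lowest Dbp (27.9 and 40.1 TPM), the lowest Ciart (1.57 and 1.98 TPM) and the lowest Nr1d2 (32.6 and 45.3 TPM). The other MBNL1+MBNL2 libraries had 0.85 and 0.93 TPM of Arntl in the ventricle and 1.20 and 1.63 TPM in the atria.

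MBNL2 replicate 1 was also high in Arntl, with 1.99 TPM in the ventricle and 3.70 TPM in the atria, but in contrast had high Nr1d1, at 52.4 TPM, the highest ventricle, and 62.6 TPM. Its Per3 (5.83 and 6.88 TPM) and Tef (48.1 and 63.3 TPM) were the lowest of their cohort. Thus 2 numbers with high Arntl stood at opposite ends for Nr1d1. Replicate 3 of -dox and +/-dox made the other high atrial values of Arntl, 3.39 and 3.02 TPM.

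Across the 18 same-numbered pairs of ventricle and atria, each member's deviations from its group means were compared on the log2 CPM scale, by permutation within cohorts and with p-values adjusted over 10 genes, a comparison chosen after the values were seen. Nr1d1 gave Pearson r = 0.954 (permutation, adjusted p = 0.00137) and Spearman rho = 0.909 (permutation, adjusted p = 0.00327). Arntl gave r = 0.918 (permutation, adjusted p = 0.00387) and rho = 0.851 (permutation, adjusted p = 0.00442). Dbp gave r = 0.937, Ciart 0.930, Nr1d2 0.921, Tef 0.911, Per3 0.885, Per1 0.852 and Per2 0.704, with permutation adjusted p-values of r from 0.00137 to 0.00598 and of rho from 0.0031 to 0.00543.

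Npas2 was the exception, with r = 0.398 (permutation, adjusted p = 0.14) and rho = 0.501 (permutation, adjusted p = 0.0919). Over all genes tested the median r was 0.235. Without the 2 pairs farthest from the median ventricular deviation, r was 0.920 for Nr1d1, 0.903 for Ciart, 0.832 for Arntl, 0.772 for Dbp and 0.517 for Per3, the lowest of the 10, and 0.624 for Npas2. Deviations had the same sign in both chambers in 13 of 18 pairs for Npas2 and in 14 to 16 of 18 for the other members. No test of whether r differs between members was made.

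**Figure D3:**
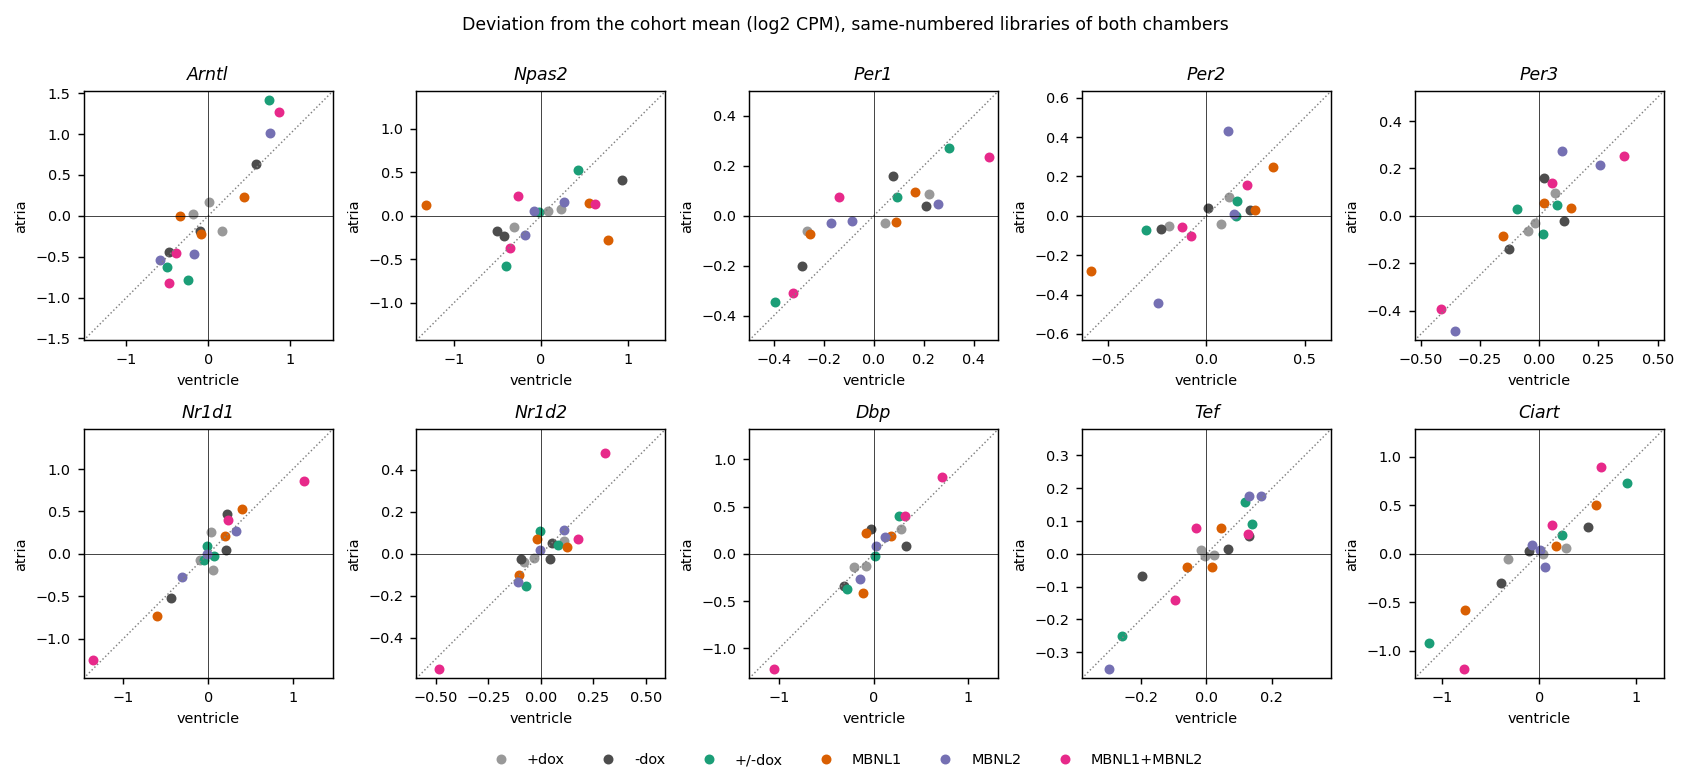
Deviation of each library from its cohort mean (log2 CPM), ventricle on the x axis and atria on the y axis, 18 same-numbered pairs per gene, cohorts in colour, with the line of equal deviation dotted. The points follow the line for Nr1d1 (r = 0.954) and scatter for Npas2 (r = 0.398).

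Between libraries of a cohort, Arntl moved against most of the other members. Arntl and each of the 9 others were compared in 18 libraries per chamber, 18 relations in all, by permutation within cohorts. Of these, 8 had an adjusted p of r under the threshold, and r was negative in all 8. Both chambers came from the same animals and most members deviated alike in them. A relation seen in both chambers is therefore not an independent repeat, and the 18 are not separate tests. On the log2(TPM + 1) scale 1 of 18 passed, Ciart in the atria (permutation, adjusted p = 0.0301). Tef had the strongest relation in both chambers: in the ventricle r = -0.872 (permutation, adjusted p = 0.0063) and rho = -0.829 (permutation, adjusted p = 0.0149), and in the atria r = -0.889 (permutation, adjusted p = 0.00882) and rho = -0.907 (permutation, adjusted p = 0.0193).

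Without the 2 libraries farthest from the median of Arntl, r for Tef was -0.889 (ventricle) and -0.896 (atria), and within set A it was -0.885 and -0.980. Set A holds 2 libraries of each of its cohorts, whose deviations from their mean mirror each other. An r within set A, here and below, thus rests on 1 difference per cohort, and no p is given for it. Set B holds more than 1 library of a cohort only for MBNL1+MBNL2, which is too few for its own value. Per2 gave r = -0.674 (permutation, adjusted p = 0.0184) in the ventricle and -0.575 (permutation, adjusted p = 0.0184) in the atria, with rho = -0.610 (permutation, adjusted p = 0.0505) and -0.701 (permutation, adjusted p = 0.0238). Without the 2 farthest libraries r for Per2 was -0.720 and -0.761, and within set A -0.636 and -0.935.

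Ciart in the atria gave r = -0.837 (permutation, adjusted p = 0.00882) and rho = -0.820 (permutation, adjusted p = 0.0193), and Nr1d2 in the atria r = -0.761 (permutation, adjusted p = 0.0184) and rho = -0.804 (permutation, adjusted p = 0.0238). Without the 2 farthest libraries these fell to -0.458 and -0.541, so that part of each rests on +/-dox replicate 3 and MBNL1+MBNL2 replicate 2. Within set A they were -0.553 and -0.929.

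In the ventricle Per3 gave r = -0.738 (permutation, adjusted p = 0.0383) and rho = -0.622 (permutation, adjusted p = 0.0798), and Dbp r = -0.659 (permutation, adjusted p = 0.0484) and rho = -0.606 (permutation, adjusted p = 0.0773). Without MBNL1+MBNL2 replicate 2 and MBNL2 replicate 1 these were -0.337 and -0.405, and within set A -0.898 and -0.449. The relations of Per3 and Dbp in the ventricle thus rested on those 2 libraries. With MBNL1+MBNL2 replicate 2 left out in both chambers, Per3 and Dbp in the ventricle no longer passed (permutation, adjusted p = 0.148 and 0.26), and the other 6 relations did.

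Nr1d1 and Arntl, which repress and activate in the same loop, showed no relation that passed in either chamber: r = -0.269 in the ventricle (permutation, adjusted p = 0.6) with rho = -0.059 (permutation, adjusted p = 0.906), and r = -0.246 in the atria (permutation, adjusted p = 0.6) with rho = 0.0093 (permutation, adjusted p = 0.979). Without the 2 farthest libraries r was 0.198 and 0.400, and within set A 0.370 and 0.572, the opposite sign. Npas2 and Arntl, both targets of the REV-ERB repressors, gave r = 0.256 (permutation, adjusted p = 0.372) with rho = 0.340 (permutation, adjusted p = 0.264) in the ventricle and r = 0.553 (permutation, adjusted p = 0.167) with rho = 0.389 (permutation, adjusted p = 0.293) in the atria. Within set A these were -0.596 and -0.077. The 6 remaining relations (Per1 in both chambers, Nr1d2 and Ciart in the ventricle, Per3 and Dbp in the atria) had r of -0.665 to -0.344 with permutation adjusted p-values of 0.0564 to 0.361, and rho of -0.577 to -0.323 with permutation adjusted p-values of 0.0824 to 0.347. Without the 2 farthest libraries their r was -0.621 to 0.154.

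Some ventricular relations also rested on MBNL1 replicate 1, the library with the fewest genes detected. Without it, Npas2 gave r = 0.662 (permutation, adjusted p = 0.0548), and Nr1d2 passed (r = -0.749, permutation, adjusted p = 0.0166). Per2 (r = -0.722), Per3 (-0.719) and Dbp (-0.667) then missed the threshold (permutation, adjusted p = 0.0529, 0.0548 and 0.0548). Tef still passed in the ventricle (r = -0.877, permutation, adjusted p = 0.00882), and so did the same 4 atrial relations, for 6 of 18 in all.

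Ratios of 2 clock genes within a library need no scale between libraries, and are given as log2 ratios of CPM with no test. Nr1d1 and Arntl showed no relation that passed, so their ratio is a description and is not read as a clock phase. Nr1d1 over Arntl had a median of 4.55 in the ventricles, with 1.39 the lowest (MBNL1+MBNL2 replicate 2) and 5.80 the highest (+/-dox replicate 2). In the atria the median was 4.64, the lowest 1.01 (MBNL1+MBNL2 replicate 2) and the highest 6.39 (+/-dox replicate 1). The 3 +dox libraries lay close together, at 3.81 to 4.32 in the ventricles and 4.45 to 4.77 in the atria.

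The -dox libraries lay at 3.15 to 4.21 in the ventricles, overlapping with +dox, and at 3.45 to 4.26 in the atria, all below +dox. The +/-dox libraries lay at 4.59 to 5.80 in the ventricles, all above +dox, and at 4.32 to 6.39 in the atria, where replicate 3 fell below the +dox range. MBNL1 lay at 4.51 to 5.05 and MBNL2 at 4.63 to 5.64 in the ventricles, both above +dox, and at 4.54 to 5.72 and 4.02 to 5.30 in the atria, both overlapping with +dox. The -dox and +/-dox libraries did not overlap in either chamber. A lack of overlap between 3 and 3 libraries was common among single genes, at 11.4% to 38% of those tested in the comparisons with +dox. No such share is given for ratios, so these separations have no background beside them.

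Dbp over Arntl gave a like picture. It was lowest in MBNL1+MBNL2 replicate 2 (2.46 in its ventricle, 1.95 in its atria) and highest in the +/-dox cohort (5.98 and 7.16). The +dox libraries spanned 4.49 to 5.01 in the ventricles and 5.13 to 5.39 in the atria, while +/-dox spanned 4.44 to 5.98 and 4.21 to 7.16, with replicate 3 the lowest. Replicate 3 of +/-dox thus differed from the other two, and it is the female, set B library of that cohort. Per2 over Nr1d1, 2 repressor genes, was highest in MBNL1+MBNL2 replicate 2 in both chambers (1.12 and 1.06), against medians of -0.83 and -0.78.

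**Figure D4:**
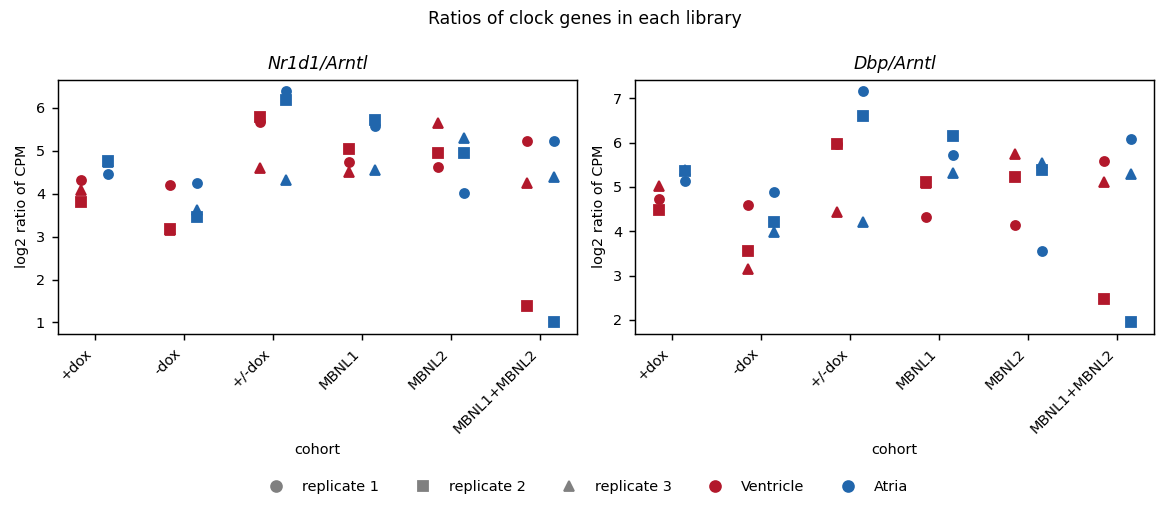
Log2 ratio of CPM of Nr1d1 to Arntl (left) and Dbp to Arntl (right) in each of 36 libraries, by cohort, with chambers in colour and replicate numbers as markers. MBNL1+MBNL2 replicate 2 lies lowest in both chambers (1.39 and 1.01 for Nr1d1 to Arntl), and the +dox libraries lie within 3.81 to 4.77 for Nr1d1 to Arntl and 4.49 to 5.39 for Dbp to Arntl.

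Between chambers, Npas2 was the member that differed most, and it was higher in the atria in 18 of 18 same-numbered pairs. Across cohorts its log2 difference, atria minus ventricle, was 1.33 ± 0.15 (edgeR adjusted p = 9.87e-09), the only member called of 10, beside 31.7% of all genes tested. Its ranges over libraries on the TPM scale overlapped only between the +dox ventricles at 1.25 and 1.07 TPM and the lowest atrium (1.03 TPM, +/-dox). On the TPM scale the endothelial, fibroblast and macrophage marker sums were also higher in atria, with medians of 165, 1087 and 57.9 TPM against 155, 644 and 25.8 TPM in ventricle (3 genes each), although on the TMM scale the endothelial genes Cdh5 and Kdr were called lower in atria. Their part in this difference was not tested.

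The other members differed by less than 1.5-fold. Log2 differences were 0.41 ± 0.15 for Dbp (edgeR adjusted p = 0.019), 0.38 ± 0.08 for Per1 (adjusted p = 0.000155), 0.33 ± 0.08 for Per2 (adjusted p = 0.000597), 0.25 ± 0.07 for Per3 (adjusted p = 0.00271) and 0.23 ± 0.05 for Tef (adjusted p = 0.000191). Ciart (0.38 ± 0.19, adjusted p = 0.0848), Nr1d1 (0.20 ± 0.18, adjusted p = 0.341), Nr1d2 (0.12 ± 0.07, adjusted p = 0.117) and Arntl (0.08 ± 0.23, adjusted p = 0.778) did not pass in this fit, which treats the libraries as separate animals. With same-numbered libraries as a block, Ciart (0.38 ± 0.06, edgeR adjusted p = 2.78e-06), Nr1d1 (0.20 ± 0.04, adjusted p = 5.45e-05) and Nr1d2 (0.11 ± 0.02, adjusted p = 0.000142) also passed, all under 1.5-fold, and Arntl did not (0.01 ± 0.08, adjusted p = 0.95). Atria were higher in 17 of 18 same-numbered pairs for Per1, Per2, Per3 and Dbp, in 18 for Tef and in 11 for Arntl.

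The size of these differences depended on the scale. The 37 mitochondrial genes took a median of 29.1% of TPM in ventricle and 21.4% in atria, and on the TPM scale the median of 12881 genes was 0.52 higher in atria, against 0.03 on the TMM scale. The log2 TPM difference was 1.76 for Npas2 and 0.59 for Arntl, which is 1.24 and 0.07 above that median. For the other 8 members it was 0.10 to 0.39 above the median.

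The rest of the clock was read from a list of 14 other clock genes. In the ventricle 0 rose and 1 fell in -dox against +dox, Rorb, a ROR-element activator (log2 fold change -1.17 ± 0.34, edgeR adjusted p = 0.0121). Rorb averaged 0.66 ± 0.044 TPM (SD, n = 3) across +dox and 0.31 ± 0.10 TPM (SD, n = 3) across -dox ventricles. In MBNL2 ventricles 1 rose, Bhlhe40, a repressor of the ARNTL complex (0.64 ± 0.17, edgeR adjusted p = 0.0229), and in the +/-dox atria 1 rose, its paralog Bhlhe41 (0.60 ± 0.15, edgeR adjusted p = 0.00687). None was called in the other 7 comparisons with +dox, and the list's median log2 fold change lay between -0.12 and 0.16, beside medians of -0.04 to 0.03 for all genes tested. Each call was 1 of the 14 genes. Of all genes tested, 7.6% were called in the -dox ventricle, 1.52% in the MBNL2 ventricle and 3.99% in the +/-dox atria. Hlf, the third D-box activator, had a mean of 30.6 TPM.

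Between chambers 4 of the 14 were called, a share near the 31.7% of all genes tested. Hlf (log2 difference 1.00 ± 0.07, edgeR adjusted p = 4.53e-14) and Fbxl21 (0.82 ± 0.15, adjusted p = 1.98e-05) were higher in atria, and Nfil3, a D-box repressor (-1.20 ± 0.12, adjusted p = 2.93e-10), and Rorb (-3.91 ± 0.16, adjusted p = 4.4e-20) were lower. Rorb was at 0.20 to 0.96 TPM in the ventricles and at 0.02 to 0.09 TPM in the atria, where 5 to 43 counts set its values.

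The outputs of the clock are described by 10 heart genes. Of these, 3 rose and 0 fell in the -dox ventricle, 5 and 0 in the +/-dox ventricle, 3 and 0 in the MBNL1 ventricle, 0 and 0 in the MBNL2 ventricle and 1 and 0 in the MBNL1+MBNL2 ventricle. Of all genes tested, 7.6%, 6.6%, 2.66%, 1.52% and 2.65% were called in these comparisons, in either direction. The 10 listed genes also respond to nutrition and to heart disease, and the list is not independent evidence on the clock. The list's median log2 fold change was 0.14 to 0.52 in the 5 ventricular and -0.19 to 0.20 in the 5 atrial comparisons, beside -0.04 to 0.03 for all genes tested. Pdk4, which restrains glucose oxidation, rose in 4 of these (log2 fold change 3.10 ± 0.52 in -dox, edgeR adjusted p = 0.000122, and 2.79 ± 0.51 in +/-dox, adjusted p = 0.000367). Kcnip2, a potassium channel subunit, rose in -dox (1.16 ± 0.19, adjusted p = 5.22e-05) and +/-dox (0.90 ± 0.19, adjusted p = 0.000938).

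Tcap, a sarcomere protein gene and the list's highest by mean TPM (2231 TPM), rose in the +/-dox and MBNL1 ventricles (0.79 ± 0.19, edgeR adjusted p = 0.00351, and 0.61 ± 0.19, adjusted p = 0.0423), and Klf15 rose in the +/-dox ventricle (0.65 ± 0.14, adjusted p = 0.000846). In the atria Pdk4 was the one gene called, higher in -dox (2.19 ± 0.50, edgeR adjusted p = 0.00344) and +/-dox (1.98 ± 0.50, adjusted p = 0.00918), beside 5.23% and 3.99% of all genes tested. Between chambers, Kcnh2 was called higher and Kcnip2, Dgat2 and Nampt lower in atria, 4 of 10 beside 31.7% of all genes.

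Glucocorticoid-responsive genes, which follow a daily hormone rhythm, were called in both directions. Of 9, 2 rose in the -dox ventricle (Zbtb16 and Mt2), 2 rose and 1 fell in the +/-dox ventricle (Zbtb16 and Mt2, and Cdkn1a), 1 rose in the MBNL1 and in the MBNL2 ventricle (Mt2 in both), and 2 in the MBNL1+MBNL2 ventricle (Fkbp5 and Mt2). In the atria 1 rose in -dox (Fkbp5), 2 in +/-dox (Zbtb16 and Mt2), 1 in MBNL1+MBNL2 (Mt2), and 0 in MBNL1 and MBNL2. Of all genes tested, 7.6%, 6.6%, 2.66%, 1.52% and 2.65% were called in those ventricles, in the same order. In those atria 5.23%, 3.99%, 0.26%, 0.13% and 0.0052% were called. The list's median was 0.05 to 0.37 in the ventricle and 0.05 to 0.23 in the atria. MBNL1+MBNL2 replicate 2 had the highest Fkbp5 of all libraries of its chamber, 17.6 TPM in the ventricle and 27.4 TPM in the atria, against medians of 8.03 and 12.7 TPM. Without it Fkbp5 was not called in the MBNL1+MBNL2 ventricle (log2 fold change 0.53, edgeR adjusted p = 0.297, against 0.87 with it). Between chambers Sgk1, Cdkn1a and Ddit4 were called lower in atria, 3 of 9 beside the same 31.7%.

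Of 6 immediate early genes, which mark recent stimulation of a cell, 0 were called in the ventricle. In the atria Fosb alone was called, lower in +/-dox (-1.51 ± 0.51, edgeR adjusted p = 0.0465) and MBNL1 (-2.34 ± 0.52, adjusted p = 0.0337), beside 3.99% and 0.13% of all genes tested. The list's median was -0.52 to 0.34 in the ventricle and -1.08 to -0.07 in the atria. Median CPM over 18 libraries was higher in atria than in ventricle for all 6, from 15.1 against 12.0 for Junb to 6.37 against 1.52 for Fos. Of all genes tested, 31.7% were called between chambers, in either direction.

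The genes most like Arntl were ranked by Pearson r of their deviations from group means over all 36 libraries, among 13251 genes with a mean CPM of at least 1, as a description: the libraries share depth, and same-numbered libraries share deviations. The 5 highest were Plekhg1 (r = 0.823), Leo1 (0.779), Nfil3 (0.762), Ckap4 (0.761) and Col15a1 (0.702), and the 5 lowest 5930430L01Rik (-0.845), Fam76a (-0.779), Cry2 (-0.774), Stk35 (-0.754) and Intu (-0.753). Of these Nfil3 and the cryptochrome Cry2 are on the list of other clock genes. Tef, at -0.870, was below all 5.

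With Dbp the 5 highest were Tspan4 (r = 0.858), Pdcd4 (0.817), Ankrd12 (0.793), Hbp1 (0.781) and Ccdc28a (0.764). Among the members Nr1d2 (0.904), Nr1d1 (0.832), Ciart (0.789) and Per3 (0.753) were near them, whereas Per2 was at 0.285. Tef, with 0.499 to Dbp, was thus nearer to Arntl, with the opposite sign, than to Dbp, although both encode D-box activators.

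In the GENCODE annotation of GRCm38, 7 of the 10 members overlap another gene. Nr1d1 (chr11:98767932-98775333, minus strand) overlaps Thra on the opposite strand, and Dbp (chr7:45705088-45710203, plus strand) overlaps Sphk2. Npas2 (chr1:39193731-39363236, plus strand) overlaps Gm20428 on the opposite and Gm3617 on the same strand, Arntl (chr7:113207465-113314126, plus strand) Gm45355, Ciart (chr3:95878503-95882251, minus strand) C920021L13Rik, Per3 (chr4:151003652-151044665, minus strand) Camta1, and Tef (chr15:81802421-81826863, plus strand) Gm17597. Per1 (chr11:69095217-69109960, plus strand), Per2 (chr1:91415982-91459324, minus strand) and Nr1d2 (chr14:18204054-18239127, minus strand) overlap none. The library kit keeps strand, but the strand setting of the counting is not given in the sources used here, and counts of Nr1d1 and Dbp were in part fractional, as shared reads make them.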

How the data were processed

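Left ventricle and atria of CUG960 mice were sequenced after poly(A) selection with a stranded kit from 250 ng of RNA, and reads were aligned with STAR 2.7.10b to mm10 and counted per gene with RSEM 1.3.1 by the authors, per the labels, the methods and the submitters' processing notes. The deposited tables hold RSEM expected counts and TPM for 36 libraries, and no column was left out. Here the expected counts were rounded and fitted in edgeR 4.0.16 (robust quasi-likelihood test, TMM scaling, filterByExpr, 12 group means, Benjamini-Hochberg adjustment per comparison). Called means an adjusted p under 0.05 and a fold of at least 1.5. An SE is the log2 fold change divided by the square root of F. Where only p is written for such a test it comes from edgeR. TPM were used for levels, with a pseudocount of 1 where logged, and log2 CPM with a prior count of 2 for correlations (100000 resamples, two-sided, within cohorts). Alternatives were RLE size factors, no filter on low counts, DESeq2 1.42.0, limma 3.58.1 on log2(TPM + 1), each tissue fitted alone, a library set term, a replicate block and leaving out each library. On simulated counts for -dox against +dox in the ventricle (19002 genes, 200 changed 2-fold), edgeR recovered 81.5% of the changed genes. The changed genes were drawn at random from genes above a minimum mean count, so this share is not the power for the members. In variation between replicates Arntl, Ciart and Nr1d1 stood at percentiles 84.2, 77.8 and 76.7 of the genes tested, and the other members at 40.8 to 71.2.

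The members, the lists and the tests were chosen with earlier results of these data known. The rule named all 10 members, the called genes and the 2 with the highest mean TPM of the other clock and clock output lists, and the genes most like Arntl and Dbp; 2 genes of these lists enter their counts and medians but are not reported here. The chambers came from the same animals per the study's sample list. Over all other genes, deviations of same-numbered ventricle and atria correlated at r = 0.029 to 0.221, and 17 of 18 ventricles correlated best with the atria of their own number. Outside MBNL1+MBNL2, replicate 3 was the only set B, female library of its cohort in both chambers. For that number, a shared animal cannot be told apart from shared set and sex. The labels call the samples biological replicates, and no pair of replicates agreed within sampling noise (chi-square per degree of freedom 9.61 to 129). Sequences came from RefSeq (GRCm38.p6), the same assembly as mm10; Per2 had no entry.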

Additional observations from a re-analysis of the deposited data

How the results depend on the processing

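Counts of called members moved by over 1.5 times under some settings. For -dox against +dox in the ventricle the count of 1 became 0 with RLE size factors, without the filter on low counts, with the tissue fitted alone and with limma on log2(TPM + 1), where Npas2 had adjusted p-values of 0.0512, 0.0997, 0.125 and 0.0606. For MBNL1 it became 0 without the filter, with the tissue alone and with limma (adjusted p = 0.0979, 0.137 and 0.0863), and for +/-dox 0 with limma, where the adjusted p stayed at 0.0269 but the fold fell short on that compressed scale. For +/-dox in the atria the count of 0 became 1 with the tissue alone and with limma. Between chambers it rose from 1 to 9 with limma on log2(TPM + 1), the scale on which the median gene is also higher in atria. Leaving out 1 library gave 0 to 1 called members in the -dox and MBNL1 ventricles and 0 to 2 in the +/-dox ventricle. Of the 18 relations with Arntl, 8 passed and 1 did on the log2(TPM + 1) scale, where Arntl lies near the pseudocount. No log2 fold change of a member called under any setting reversed. Leaving out both MBNL1+MBNL2 libraries numbered 2 (chosen after seeing the data) moved no count.

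With the replicate number as a block Npas2 was called in the -dox, +/-dox and MBNL1 ventricles (1 of 10 members each, as without it). Between chambers the block of cohort and number kept the count at 1, but 9 of 10 members then had an adjusted p under 0.05, against 6 without it. The block changed no other call. Between cohorts the numbers did not pair the samples (0 of 30 pairs of cohorts with every r over 0.1). The depth, 62 counts at the least for Arntl and 39 for Npas2, limits these 2 genes most.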
